A study of Caenorhabditis elegans with 78 samples.

Results

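Of 10328 H3K4me3 sites in first-stage (L1) larvae of Caenorhabditis elegans, 462 (4.47%) were called as peaks mainly at 26 °C. H3K4me3 is histone H3 trimethylated at lysine 4. Overlapping peaks of 16 H3K4me3 lists, 8 from larvae at 26 °C and 8 from larvae at 20 °C, were merged into sites, and any overlap with a peak of a list, down to 1 bp, counted as a call. A site was 26 °C-biased when at least 4 more lists called it at 26 °C than at 20 °C. Temperature calls of H3K4me3 therefore chose these sites, and every comparison of that mark between the temperatures at them is a description without a test. The same rule turned round gave 75 sites (0.726%), called here 20 °C-biased sites.

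The lists came from chromatin immunoprecipitation sequencing (ChIP-seq) of whole larvae carrying lin-15B(n744), lin-35(n745) or lin-37(n758), and of wild type, each with 2 H3K4me3 libraries at 26 °C and 2 at 20 °C. For 26 °C, parents grown at 20 °C were shifted in their last larval stage, and embryos hatched unfed at 26 °C. The 20 °C larvae and their parents stayed at 20 °C. Another 16 libraries of the same design covered H3K9me2, histone H3 dimethylated at lysine 9. The H3K4me3 immunoprecipitation was automated and that of H3K9me2 manual, each with its own antibody, so both marks came from separate libraries and need not sit in the same cells. Nothing in the labels said that the 2 libraries of a group were separate cultures, so the spread between them may be technical.

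H3K4me3 marks promoters of transcribed genes and is laid down by COMPASS-type methyltransferases. H3K9me2 marks repressed chromatin and in this worm is concentrated on the arms of the autosomes, whereas chromosome centres hold most broadly expressed genes. The 3 mutated genes are synMuv B regulators. LIN-35, the worm homologue of the retinoblastoma protein, works with the DREAM repressor complex, to which LIN-37 belongs. LIN-15B carries a THAP-type DNA-binding domain. Mutants of this class express germline genes in somatic cells and arrest as larvae at raised temperature.

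The lists hold peaks with a fold enrichment over background, not read counts, so the depth behind a peak is unknown and a missing peak means only that none was called. In whole larvae, a mark in few cells and a weak mark in many cells cannot be told apart. The 26 °C lists called 5035 to 7346 of the sites and the 20 °C lists 4621 to 7798. The mean was 515.75 sites higher at 26 °C, which was not past the spread between libraries (exact permutation test within genotype, two-sided, p = 0.319). One list stood apart. The lin-15B 20 °C replicate 2 list was the longest, with 8412 peaks, and without it the mean difference was 851 sites (exact permutation p = 0.0725). Of the 16 H3K4me3 lists, 8 share a series tag in their deposited names, 1 for each genotype and temperature. What the tag stands for is not stated. Tagged lists called a mean of 6523.5 sites at 26 °C and 6047 at 20 °C, against 5411 and 4856 for the others. The permutation test above did not use the tag, so the spread it measured also holds this difference.

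**Figure D1:**
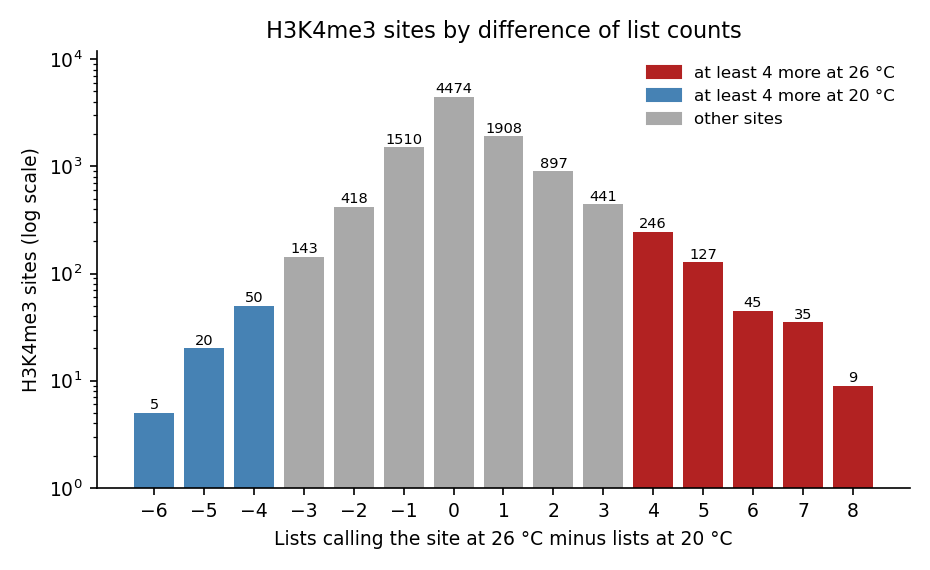
H3K4me3 sites (log-scale y axis) by the number of lists calling them at 26 °C minus the number at 20 °C (x axis), with 26 °C-biased sites in red, 20 °C-biased sites in blue and all other sites in grey. Differences of 4 or more were held by 462 sites and differences of -4 or less by 75, and 4474 sites had equal counts.

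The counts ran down from the threshold. A difference of exactly 4 lists was held by 246 of the 462 sites, 5 by 127, 6 by 45, 7 by 35 and 8 by 9. Just outside, 441 sites had a difference of 3. The sites at 4 had a median fold of 3.17 over the 26 °C lists that called them and lay on chromosome arms in 61.8% of cases, against 3.13 and 55.3% for the sites at 3. The boundary thus passed through a continuous range of sites and not through a gap. No 20 °C list called 141 of the 462 sites (30.5%), 1 list called 127, 2 lists 99, 3 lists 58 and 4 lists 37.

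The 26 °C libraries of lin-15B called 265 and 409 of the 462 sites, those of lin-35 303 and 395, those of lin-37 446 and 386, and those of wild type 346 and 303. The 20 °C libraries of lin-15B called 41 and 293, those of lin-35 118 and 32, those of lin-37 39 and 7, and those of wild type 62 and 55. The rule used these calls, so a separation of the temperatures at the 462 sites is not a result. Over all 10328 sites, the lists called 48.8% to 71.1% at 26 °C and 44.7% to 75.5% at 20 °C. Within lin-35, lin-37 and wild type, every 26 °C list called at least 303 of the 462 and every 20 °C list at most 118. In lin-15B the groups overlapped, because the longest list called 293 of the sites at 20 °C and lin-15B 26 °C replicate 1 called 265. That longest list was also the only 20 °C list to call 102 of the sites (22.1%). Without it, 756 sites met the rule and 27 met the reverse rule.

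**Figure D2:**
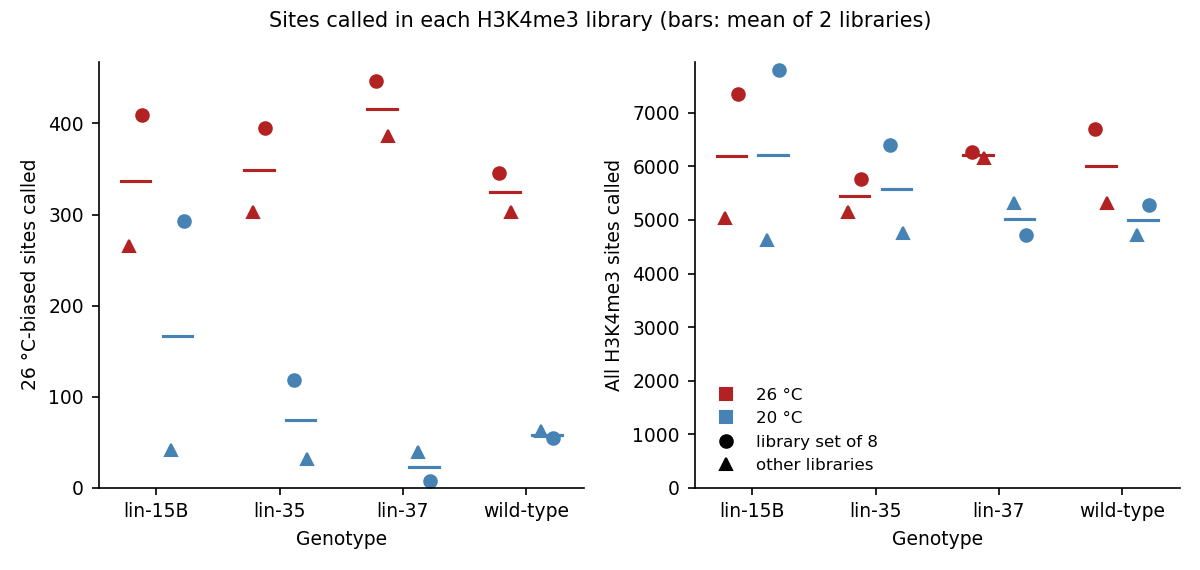
Number of 26 °C-biased sites (left) and of all H3K4me3 sites (right) called in each library, by genotype, with 26 °C in red and 20 °C in blue. Each point is 1 library, bars are means of 2 libraries, and circles mark the 8 lists with a shared series tag. In the left panel lin-15B 20 °C replicate 2 stands at 293, far above the 7 to 118 of the other 20 °C libraries.

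The excess of 26 °C-biased over 20 °C-biased sites was smaller with lists of equal length. When each list was cut to the 5421 peaks with the highest −log10 q, the length of the shortest list, 303 sites met the rule and 172 met its reverse. Of the 462 sites, 242 (52.4%) were still overlapped by one of those 303. That cut also removed the weakest peaks and left 7796 merged sites, so the part of list length alone was not tested. Both sets of lists entered the rule, so their shares in it are a description. More lists called the site at 26 °C than at 20 °C for 461 of the 462 within the tagged set, for 458 outside it and for 457 in both. A difference of at least 2 lists in each set was found at 317.

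By genotype, the clean pattern of both 26 °C lists and neither 20 °C list was most frequent in lin-37. It was held by 329 of the 462 sites in lin-37, 156 in lin-35, 57 in lin-15B and 190 in wild type. Over all 10328 sites the same pattern was held by 6.85% in lin-37, 2.08% in lin-35, 1.11% in lin-15B and 3.96% in wild type. The reverse pattern, both 20 °C lists and neither 26 °C list, was held by 0.891%, 1.56%, 0.358% and 0.165% of all sites in the same genotypes. Because this pattern goes into the rule, the counts at the 462 sites say only which genotypes supplied them. The low count in lin-15B stood beside the long 20 °C replicate 2 list, whose part in it was not tested.

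With 2 lists per genotype and temperature, a difference of 4 lists needs at least 2 genotypes. More 26 °C than 20 °C lists called the site in all 4 genotypes at 151 of the 462 sites, in 3 at 257 and in 2 at 54. At 26 °C, 295 sites (63.9%) had a call in every genotype, and 84 (18.2%) had one in all 3 mutants and none in wild type. No wild-type list at either temperature called 95 of the sites (20.6%). Among all other sites 31.4% were called in no wild-type list, so the 26 °C-biased sites were not richer in such sites.

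**Figure D3:**
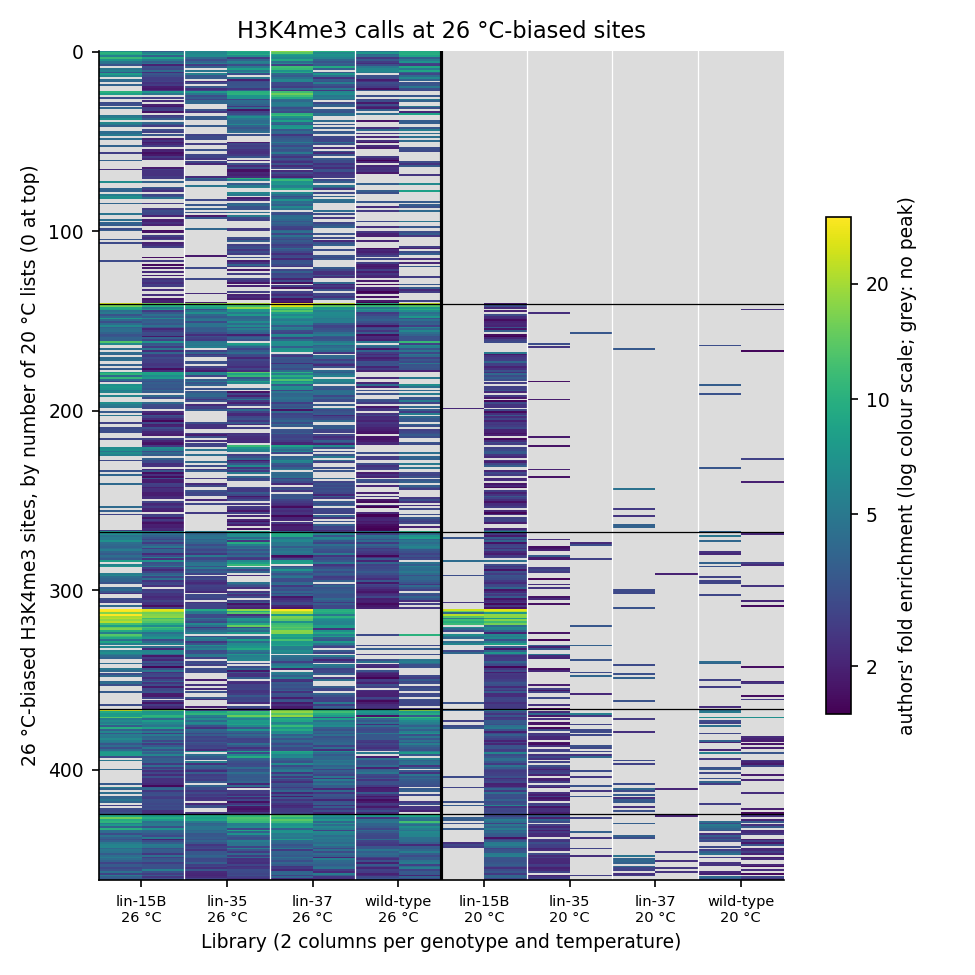
The 462 sites (rows) in the 16 H3K4me3 libraries (columns, 26 °C left and 20 °C right of the black line), coloured by the authors' fold enrichment on a log colour scale, with grey where no peak was called. Rows are ordered by the number of 20 °C lists, from the 141 sites with 0 at the top. The brightest band with 20 °C calls in both lin-15B columns holds the sites called in lin-15B at both temperatures.

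The peaks were mostly weak beside those at the sites called in all 16 lists. Folds are the authors' values, given by the peak caller at the summit, and are compared here only as descriptions. Their level differed between lists. The median fold over all sites called was 4.15 to 10.1 in the 26 °C lists and 4.61 to 8.89 in the 20 °C lists. Folds were not adjusted for this, here or where genotypes are set side by side below. The median over the 462 sites of the mean 26 °C fold was 3.35, against 2.74 at 1040 evenly called sites (4 to 12 lists, counts at the temperatures within 1) and 17.5 at the 3429 sites called in all 16 lists. Over all sites with a 26 °C call that median was 3.75. Peaks were also ranked by −log10 q within their own list. By that rank, the median 26 °C peak of the 462 sites sat at percentile 22.7 to 33.9, depending on the library. Where a 20 °C list did call a site, its peak sat at a median percentile of 16.6 to 32.8. The peaks at these sites thus lay in the lower part of their lists at both temperatures.

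The sites were narrow. Their median width was 710.5 bp, and the middle 50% ran between 532 and 981 bp, against a median of 759.5 bp at evenly called sites and 1474 bp at sites called in all 16 lists. A single peak per list made up 392 of the 462 (84.8%), near the 82.4% of evenly called sites and 80.1% of all sites. The widest was II:11758378-11761824 (3447 bp), with folds of 2.3 to 3.5 in the 8 lists at 26 °C and of 1.89 and 2.72 in both lin-35 lists at 20 °C. The narrowest were IV:2330908-2331196 (289 bp) and III:13451126-13451440 (315 bp), called in 4 and 5 of the 26 °C lists and in no 20 °C list. Coordinates are those of build ce10, and a gene annotation and genome of that build were not used here, so no site was assigned to a gene and no sequence is shown.

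At the extreme, 9 of the 462 sites were called in all 8 lists at 26 °C and in none at 20 °C. Of these, 8 lay on autosome arms and 1 in a centre. The strongest was II:10789217-10789980, 764 bp wide on the arm of II. Its folds at 26 °C were 6.48 and 3.72 in lin-15B, 6.16 and 9.33 in lin-35, 17.7 and 9.72 in lin-37, and 5.35 and 9.32 in wild type, a mean of 8.47 ± 4.31 (SD, n = 8). Every 26 °C library held a peak there, and the lin-37 replicate 1 fold was far above the other 7. H3K9me2 was called there in 5 of 8 lists at 26 °C and 6 of 8 at 20 °C.

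The site at III:10875307-10876050 (744 bp) had similar H3K4me3 folds together with H3K9me2 at both temperatures. Its 26 °C folds were 10.2 and 5.75 in lin-15B, 5.87 and 8.05 in lin-35, 13.8 and 6.13 in lin-37, and 7.21 and 9.56 in wild type, a mean of 8.32 ± 2.76 (SD, n = 8). H3K9me2 was called in 8 of 8 lists at 26 °C and in 8 of 8 at 20 °C. The same combination was found at III:11009361-11010189, where the 26 °C folds were 2.21 to 6.16 and H3K9me2 was again called in all 16 lists.

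The other 8-against-0 sites with a name here ranged from H3K9me2 in a part of the lists to none. V:17209003-17209489 had a mean 26 °C fold of 6.04 ± 1.5 (SD, n = 8) and H3K9me2 in 4 lists at 26 °C and 6 at 20 °C. II:1934810-1935485 had 5.52 ± 3.11 (SD, n = 8), with its highest folds, 11.3 and 8.66, in lin-15B. Its lowest, 2.44, was in wild-type replicate 1, the 26 °C list with the lowest median fold over all sites called. II:14069249-14069935 had 5.11 ± 2.02 (SD, n = 8) and 1 and 2 H3K9me2 lists at 26 °C and 20 °C. H3K9me2 was in no list at II:677340-677794, with a mean fold of 4.39, or at V:9089335-9090532, the centre site, with 2.85.

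Some sites rested on few genotypes. For each genotype, the site with its clean pattern and the fewest 26 °C calls elsewhere had 4 calls in all. II:989369-989818 was called in lin-15B with folds of 6.48 and 3.84 and in lin-37 with 6.89 and 3.70, and in no lin-35 or wild-type list, with no H3K9me2. V:1194256-1195181 was called in lin-35 with folds of 4.15 and 10.6, and in 1 list each of lin-15B and lin-37. IV:5397665-5398637 was called in lin-37 with 11.1 and 3.06 and in lin-35 with 3.37 and 5.68. IV:1989312-1990270 was called in wild type with 3.75 and 6.23 and in 1 list each of lin-35 and lin-37. An H3K9me2 peak overlapped it in all 16 lists, over 4.48% to 100% of its width. A site called at 26 °C in 1 genotype alone cannot meet the rule, which asks for at least 4 lists.

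The 462 sites fell into 144 combinations of calls over genotypes and temperatures, and the most frequent combinations held 18 sites each. One of these was chosen for description after its values were seen. In it both lin-15B lists called the site at 26 °C and both at 20 °C, both lists of lin-35 and of lin-37 called it only at 26 °C, and no wild-type list called it. The combination with lin-35 in the place of lin-15B held 0 sites, and that with lin-37 in its place held 0 sites. The pattern needs calls in lin-15B 20 °C replicate 2, the longest list, and in lin-15B 20 °C replicate 1, which called the fewest sites of any list (4621). The part of list length in it was not tested.

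Those 18 sites included the highest mean fold among the 462. Their mean 26 °C fold had a median of 8.97 and a range of 4.74 to 23.3, against a median of 3.35 over the 462. The median fold at 26 °C was 15.5 and 11.1 in the lin-15B libraries, 3.37 and 5.0 in those of lin-35, and 11.8 and 6.36 in those of lin-37. At 20 °C it was 5.52 and 7.66 in the lin-15B libraries. Of the 18, 16 lay on arms and 2 in centres. The strongest, III:195095-198124 (3030 bp, the second widest of the 462), had 26 °C folds of 43.2 and 26.4 in lin-15B, 9.25 and 18.3 in lin-35, and 32.7 and 9.76 in lin-37. At 20 °C it had 23.7 and 26.3 in lin-15B and no peak in the other genotypes, while H3K9me2 was called in all 16 lists.

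Taking the mean of the 2 libraries at 26 °C, the fold was highest in lin-15B at 15 of the 18 sites and in lin-37 at 3, and was lowest in lin-35 among the mutants at all 18. IV:1969798-1970818 had 28.7 and 23.4 in lin-15B, 5.55 and 9.54 in lin-35 and 21.8 and 10.1 in lin-37 at 26 °C, with 14.9 and 21.3 in lin-15B at 20 °C. III:11623872-11625315 had 20.2 and 18.1 in lin-15B, 2.98 and 3.34 in lin-35 and 16.5 and 10.2 in lin-37 at 26 °C, with 13.6 and 17.5 in lin-15B at 20 °C. Both also carried H3K9me2 in all 16 lists. Calls in lin-15B at both temperatures chose the 18 sites. The order of H3K4me3 folds over genotypes, here and above, is therefore not independent of that choice and was not tested.

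H3K9me2 calls at the 18 sites were fewest in lin-15B. Both H3K9me2 lists at 26 °C called 8 of the 18 sites in lin-15B, 13 in lin-35, 11 in lin-37 and 13 in wild type. At 20 °C the numbers were 8 in lin-15B, 13 in lin-35, 11 in lin-37 and 12 in wild type. IV:13247481-13248286 showed the contrast fully, with H3K9me2 in no lin-15B list and in all lists of lin-35, lin-37 and wild type. At 7 of the 18 sites H3K9me2 was called in all 16 lists, and at 6 of these the peaks covered less of the site on average in lin-15B than in the other genotypes. At III:195095-198124 they covered 28.3% to 45.6% of the width in the lin-15B libraries, against 87.2% to 91.9% in the other 12. At III:11623872-11625315 the ranges were 29.9% to 34.6% and 48.7% to 67.8%. At II:14745306-14746880, the exception, they were 40.9% to 81.7% and 34.8% to 67.5%. The 18 sites were picked by their H3K4me3 calls, and this difference over genotypes was not tested.

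The strongest site with calls in every genotype was IV:16859237-16860841 (1605 bp). Its 26 °C folds were 24.5 and 15.6 in lin-15B, 17.6 and 21.3 in lin-35, 33.1 and 23.1 in lin-37, and 10.2 and 23.2 in wild type, a mean of 21.1 ± 6.80 (SD, n = 8). At 20 °C the only peak was in the long lin-15B replicate 2 list, with a fold of 1.93. All 8 folds at 26 °C were at least 10.2 and H3K9me2 was called in all 16 lists.

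The sites lay mostly on arms and seldom on X. Each autosome was divided into 2 arms, 30% of its length apiece, and a centre. Of the 462 sites, 309 (66.9%) lay on arms, 117 (25.3%) in centres and 36 (7.79%) on X, against 43.9%, 39.2% and 16.8% of evenly called sites. Of the 20 °C-biased sites, 34.7% lay on arms, 29.3% in centres and 36% on X. Chromosome I held 100 of the 462 sites, II 81, III 77, IV 86 and V 82. Among autosomal sites alone, arms held 72.5% of the 26 °C-biased sites, against 54.2% of the 20 °C-biased and 52.8% of the evenly called ones.

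These shares moved with the rule in size and not in order. With equal peak numbers, 75.6% of the sites meeting the rule lay on arms and 4.95% on X. Within the tagged lists alone the shares were 59.0% and 8.11%, outside them 59.9% and 10.2%, and at a difference of at least 6 lists 77.5% and 3.37%. All sites together had 46.7% on arms and 15.5% on X. The same shares were taken over whole lists. X held 12.4% to 15% of the sites called in each 26 °C library, against 13.5% to 16.2% in each 20 °C library, with means of 13.6% ± 0.898 and 15.03% ± 0.881 (SD, n = 8 each). Arms held 44.2% to 47.5% of the sites called in each 26 °C library, against 41.4% to 45.3% in each 20 °C library. The arm means were 45.6% ± 1.16 and 43.2% ± 1.36 (SD, n = 8 each). Over all libraries both pairs of ranges overlapped. Within genotypes, both 26 °C libraries had a higher arm share than both 20 °C libraries in lin-15B, lin-37 and wild type, and both had a lower X share in lin-35.

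**Figure D4:**
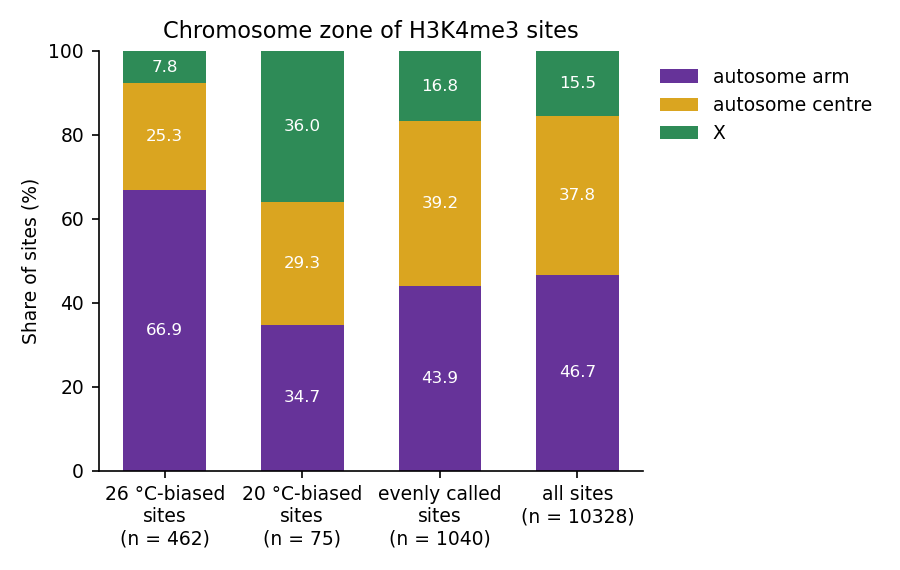
Share of sites (%, y axis) on autosome arms, in autosome centres and on X, for 26 °C-biased, 20 °C-biased, evenly called and all H3K4me3 sites. Arms hold 66.9% of the 26 °C-biased sites and 34.7% of the 20 °C-biased ones, and X holds 7.79% and 36%.

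Most of the sites had no other 26 °C-biased site within 10 kb. With a gap of at most 10 kb, the 462 formed 390 single sites, 32 pairs, 1 group of 3 and 1 group of 5. The group of 5 spanned V:1185454-1221910 on an arm and held 2 of the 18 sites described above, V:1201263-1202037 and V:1209030-1210245, with mean 26 °C folds of 11.5 and 12.1. In that group 3 further H3K4me3 sites did not meet the rule. The group of 3 spanned IV:3212186-3221679. A site called in all 16 lists lay within 1 kb of 66 of the 462 (14.3%), against 11.8% of all sites.

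H3K9me2 was tested at these sites from libraries the rule did not use. By two-sided Fisher's exact test of 8 lists at 26 °C against 8 at 20 °C with Benjamini-Hochberg adjustment over all 10328 sites, 0 of the 462 sites passed an adjusted p of 0.05, as did 0.0% of all sites. The smallest adjusted p over all sites was 0.802. At an unadjusted p under 0.05 there were 8 of the 462 (1.73%), 6 with fewer and 2 with more H3K9me2 lists at 26 °C, against 0.678% of all sites, 0.484% with fewer and 0.194% with more. An exact test within genotypes called 0 after adjustment, with 6 of the 462 at an unadjusted p under 0.05. These counts of 0 say little, because 8 lists against 8 cannot give a p below 0.000155. For complete switches alone to pass, at least 33 among the 10328 sites would have been needed, and 2 were found. Partial switches have a larger p, so passing with them would have needed more sites. For the test within genotypes the floor was 0.00154 and the number needed at that floor 319.

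Sites with the largest H3K9me2 differences were named in each direction, so both directions appear here by choice. Of the 462 sites, 102 (22.1%) had fewer H3K9me2 lists at 26 °C than at 20 °C, 48 (10.4%) had more and 312 had equal numbers. Among evenly called sites 15.7% had fewer and 14.0% had more, and among all sites 16.8% and 13.1%. These shares were not tested. III:3712533-3713247 had H3K9me2 in 0 lists at 26 °C and in 7 at 20 °C, all but lin-15B replicate 1 (Fisher's exact test, unadjusted p = 0.0014, adjusted p = 1.0). Its H3K4me3 was called in 5 lists at 26 °C, with folds of 3.28 to 6.21, and in none at 20 °C. II:99665-100358 had H3K9me2 in 0 lists at 26 °C and 5 at 20 °C (exact test, unadjusted p = 0.0256). In the other direction, II:2996359-2998108 had H3K9me2 in 8 lists at 26 °C and in 1 at 20 °C (exact test, unadjusted p = 0.0014). Its H3K4me3 was called in 8 lists at 26 °C and 1 at 20 °C, so there both marks were called mainly at 26 °C. II:7091288-7091971 had 6 and 1 H3K9me2 lists (exact test, unadjusted p = 0.0406).

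As a set, the sites carried H3K9me2 in overlapping shares at both temperatures. The 26 °C libraries called H3K9me2 at 28.6% and 27.7% of the 462 sites in lin-15B, 35.1% and 33.5% in lin-35, 30.1% and 30.1% in lin-37, and 40.3% and 32.7% in wild type. The 20 °C libraries called it at 26.0% and 34.0% in lin-15B, 39.0% and 36.8% in lin-35, 34.0% and 29.4% in lin-37, and 38.7% and 46.3% in wild type. The groups overlapped in lin-15B, lin-37 and wild type, and both lin-35 values at 26 °C were below both at 20 °C. The lin-35 libraries were separated in the same way at all other H3K4me3 sites, with 22.7% and 19.5% at 26 °C and 23.8% and 27% at 20 °C.

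The mean over libraries was 32.3% ± 4.10 at 26 °C and 35.5% ± 6.25 at 20 °C (SD, n = 8 each). The difference of -3.27 percentage points was smaller than the pooled SD of 5.28, but that SD also holds the spread between genotypes. Within each genotype the mean of its libraries was lower at 26 °C. It was 28.1% against 30.0% in lin-15B and 34.3% against 37.9% in lin-35. In lin-37 it was 30.1% against 31.7%, and in wild type 36.5% against 42.5%. This direction was not tested, and in lin-15B and lin-37 1 library at 20 °C (26.0% and 29.4%) was below both at 26 °C. At all other H3K4me3 sites the means over libraries were 23.8% at 26 °C and 24.8% at 20 °C. There the mean was lower at 26 °C in lin-35 and lin-37 and higher in lin-15B and wild type. The lin-15B libraries had 24.9% and 25.2% at 26 °C and 16.6% and 29.7% at 20 °C. Those of wild type had 29.9% and 24.3% at 26 °C and 24.8% and 28.1% at 20 °C. The H3K9me2 lists themselves covered 9.14 Mb on average at 26 °C and 10.3 Mb at 20 °C. With equal numbers of H3K9me2 peaks the difference at the 462 sites was -0.785 points. Among the 89 sites with a difference of at least 6 H3K4me3 lists it was -8.29 points.

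**Figure D5:**
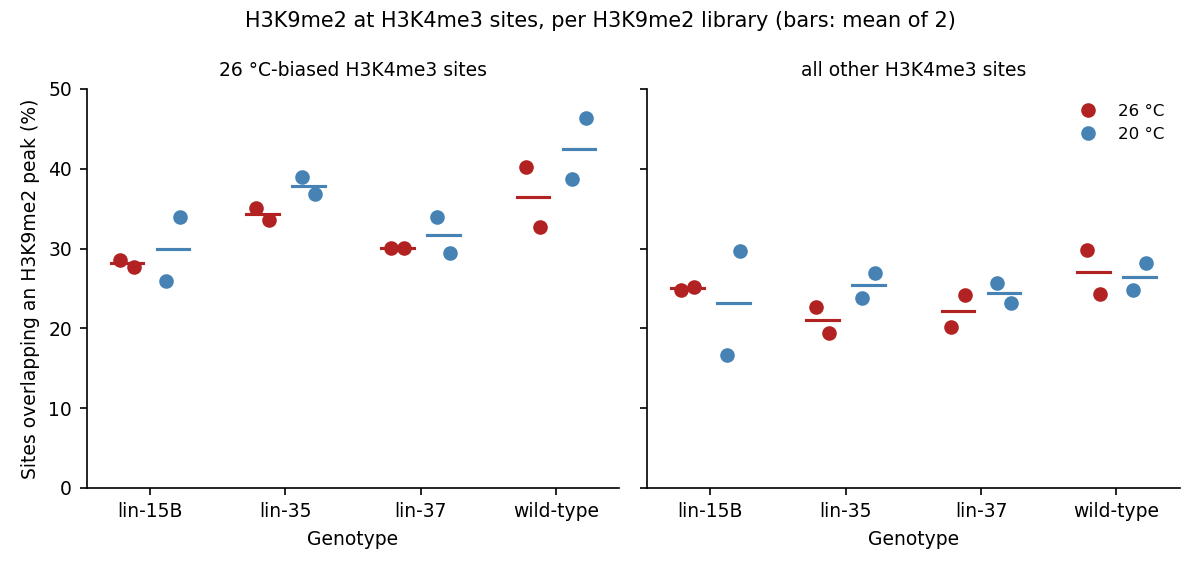
Share of sites (%, y axis) overlapping an H3K9me2 peak in each H3K9me2 library, by genotype, at 26 °C-biased H3K4me3 sites (left) and at all other H3K4me3 sites (right), with 26 °C in red and 20 °C in blue. Points are libraries and bars means of 2. At 26 °C-biased sites the values run between 26.0% and 46.3%, with the temperatures overlapping except in lin-35.

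With all zones pooled, H3K9me2 calls were more frequent at these sites than at evenly called ones. H3K9me2 was called in at least 7 of 8 lists at both temperatures at 106 of the 462 sites (22.9%), against 13.5% of evenly called sites, and in no list at 203 (43.9%), against 53.2%. On arms the mean share with H3K9me2 was 42.7% ± 5.03 at 26 °C and 47.1% ± 7.90 at 20 °C (SD, n = 8 libraries each), and evenly called sites on arms had 44.2% ± 5.81 and 46.9% ± 7.49. In centres the 26 °C-biased sites had 10.9% and 11.4%, and evenly called sites 10.0% and 9.77%. On arms and in centres the shares thus differed by less than the SD between libraries. Both groups of sites were scored in the same libraries, so that SD is not the spread of their difference, which was not tested. On X the 36 sites had 11.8% ± 3.56 at 26 °C and 14.2% ± 7.34 at 20 °C, and evenly called sites on X had 8.79% ± 7.60 and 6.5% ± 3.19 (SD, n = 8 libraries each).

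The 106 sites with lasting H3K9me2 calls lay on arms in 92.5% of cases and had a median 26 °C fold of 3.96. The 203 sites with no H3K9me2 call lay on arms in 44.8% of cases and in centres in 44.8%, with a median fold of 2.96. Sites called in no wild-type H3K4me3 list held 35 of the 106 (33.0%) and 21 of the 203 (10.3%).

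Of the 95 sites called in no wild-type H3K4me3 list, 83.2% lay on arms and 48 (50.5%) had H3K9me2 in 4 of 4 wild-type lists. Of the 367 with a wild-type H3K4me3 call, 24.5% did. Evenly called sites showed a similar division, with 48.8% of those called in no wild-type list and 12.8% of the rest. Over all other sites the division was small, with 21.3% of those called in no wild-type list and 18.8% of the rest. By genotype over both temperatures, H3K9me2 was called at 29.1% ± 3.46 of the 462 sites in lin-15B, 36.1% ± 2.33 in lin-35, 30.9% ± 2.08 in lin-37 and 39.5% ± 5.60 in wild type (SD, n = 4 each). At all other sites the shares were 24.1% ± 5.43 in lin-15B, 23.2% ± 3.11 in lin-35, 23.3% ± 2.33 in lin-37 and 26.8% ± 2.68 in wild type.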

How the data were processed

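The labels gave each sample's group and replicate number. The submitters' processing notes name Bowtie 1.1.2, build ce10 and MACS2, without a version for the last. Each library's peaks were called against an input, per the labels. Peak names gave a q cutoff of 0.01, or of 0.05 for 1 H3K9me2 list (lin-15B, 20 °C, replicate 1). The deposited H3K4me3 lists give each peak's summit fold, a ratio over background, with its −log10 p and −log10 q, as the authors deposited them. The deposited H3K9me2 lists give 3 score columns whose contents were not settled, so the score served only to rank peaks within a list.

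Repeated sub-peaks were collapsed, and the 16 H3K4me3 lists were merged. H3K4me3 calls were counted and H3K9me2 calls tested with Python 3.11.15 and scipy 1.17.1 (Fisher's exact test, Benjamini-Hochberg over all sites; tested on simulated data). For the number of sites per library, an exact permutation test exchanged the temperatures within each genotype (1296 arrangements). The highest peak end stood for chromosome length. Named sites are the 8 with the largest difference of list counts, 1 per genotype with its clean pattern and the 4 with most H3K9me2 lists. Also named are the 4 with the largest H3K9me2 difference, taken equally from both directions, and the 4 of extreme width. Ties were settled by mean fold, and none came from chromosome I. Any other site named was chosen after its values were seen. The sites, lists and rules were chosen with earlier results of these data known. Other marks and inputs were not analysed here. Alternatives covered the overlap, q, list length, size of the difference, tagged lists, each left-out library and replicate numbers.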

Additional observations from a re-analysis of the deposited data

Results flagged for a closer look

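A check for a library far from the other 7 of its temperature was made on 28 per-library values, and 4 met it. Many of these values come from the same libraries and are not independent, so the 4 are not set against a chance rate. Of these, 3 were of lin-15B 20 °C replicate 2. Its H3K4me3 list called 293 of the 26 °C-biased sites, above the 7 to 118 of the other 20 °C lists. Its H3K9me2 list, from another library, held 13766 peaks, and it called H3K9me2 at 40% of the 20 °C-biased sites. The fourth was the fold of 17.7 in lin-37 26 °C replicate 1 at II:10789217-10789980.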

How the results depend on the processing

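The number of 26 °C-biased sites was 462, stayed so with a 200 bp overlap and was 426 at a −log10 q of at least 5. It was 303 with equal peak numbers, 903, 216 and 89 at a difference of at least 3, 5 and 6 lists, and 913 within and 744 outside the tagged lists at a difference of at least 2. Leaving out 1 library gave 228 to 756, against 27 to 155 20 °C-biased sites. Since the difference of 4 was kept, leaving out a 26 °C list can only lower the count and leaving out a 20 °C list can only raise it. It fell below 462 by over 1.5 times without wild-type 26 °C replicate 1 (297), lin-15B replicate 2 (250), lin-35 replicate 2 (260), lin-37 replicate 1 (228) or lin-37 replicate 2 (270), and reached 756 without lin-15B 20 °C replicate 2. The 20 °C-biased count was 172 with equal peak numbers, 376 within and 186 outside the tagged lists. It moved by over 1.5 times without wild-type 26 °C replicate 1 (155), lin-15B 26 °C replicate 2 (152) or lin-37 26 °C replicate 2 (117), and without wild-type 20 °C replicate 2 (34), lin-15B 20 °C replicate 2 (27), either lin-35 20 °C library (29 and 46) or either lin-37 20 °C library (33 and 44). The share on X was 3.37% to 10.2% over these settings, and on arms 59.0% to 77.5%, settings that were chosen for these shares after seeing the data. Adjusted H3K9me2 calls were 0 in all 21 alternatives, which says nothing of stability, since the smallest possible p left them nearly out of reach. Unadjusted ones at 26 °C-biased sites numbered 2 to 14, against 8, with 14 without lin-15B 20 °C replicate 1 or lin-37 20 °C replicate 2 and 13 without lin-15B 20 °C replicate 2. The H3K9me2 share difference was negative in all 22 alternatives, at -8.29 to -0.785 points, and -4.64 to -1.73 with 1 library left out. The difference in sites per library was 319 (without lin-15B 26 °C replicate 2) to 851 with 1 library left out (smallest exact permutation p = 0.0725), with p = 0.5 within and 0.125 outside the tagged lists, the smallest that 4 against 4 allow there. Same-numbered libraries correlated at -0.126 to 0.326 for H3K4me3 and -0.122 to 0.107 for H3K9me2, which cannot settle whether replicate numbers pair the samples. Only in lin-15B did same-numbered H3K4me3 lists agree in the series tag. With replicate number as a block, 0 sites passed for H3K9me2, with 2 of the 462 at an unadjusted p under 0.05, and the exact sign-flip p for sites per library was 0.203. The cause of these movements was not tested.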
